A study of Homo sapiens with 6 samples.

Results

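The genes described here encode the nuclear lamina and a set of chromatin proteins whose levels are used to recognise senescent cells. They are the lamins LMNB1, LMNB2 and LMNA, the lamin B receptor LBR, the high mobility group box proteins HMGB1, HMGB2 and HMGB3, the AT-hook proteins HMGA1 and HMGA2, and H2AZ1, which encodes the histone variant H2A.Z. The members were chosen by gene symbol. All 10 were among the 22354 genes and assembled loci of the count table, and all 10 were among the 14860 that passed the filter on low counts and were tested.

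RNA was sequenced from HTori-3.1, an established line of normal human thyroid cells, to ask how gene expression differs when BMAL1, a transcription factor at the core of the circadian clock, is disrupted. The series holds 3 libraries labelled control, of wild type genotype, and 3 labelled BMAL1 knockout. The cells of both groups had been exposed to etoposide, an inhibitor of topoisomerase II that causes DNA breaks and is used to bring on senescence. The dose was 2 μM, and the sources give the exposure as 12 h in one place and 24 h in another. No library from cells without etoposide was analysed here, so every difference below is between 2 groups that both received the drug.

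Several features limit the groups as a model. The knockout cells were made with a lentivirus carrying Cas9 and a guide RNA against BMAL1, followed by puromycin, selection of single clones and collection of cells for a western blot. How many clones the 3 libraries represent is not stated, and a difference between the groups cannot be told apart from a difference between clones. The growth protocol given for the samples also describes a short interfering RNA against BMAL1. Nothing states that replicates came from separate cultures, so the p-values measure the spread between these libraries, which may be technical.

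The lamins form a meshwork under the inner nuclear membrane, and LBR anchors peripheral heterochromatin to it by binding B-type lamins and heterochromatin protein HP1. HMGB proteins bend DNA without regard to its sequence, HMGA proteins bind AT-rich DNA in the minor groove, and H2A.Z replaces the ordinary histone H2A in nucleosomes near active promoters. In many cultured cells that become senescent, LMNB1, LBR and HMGB2 decline, HMGB1 leaves the nucleus, and HMGA proteins gather in condensed heterochromatin.

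Assigned reads totalled 26893063, 27029060 and 28513703 in control replicates 1, 2 and 3. In the libraries labelled BMAL1 knockout they totalled 43148059, 29860233 and 43563391. The member with the fewest reads, HMGA2, still had 1981 reads in the library where it was lowest. Values are given as CPM, counts scaled to library size with TMM factors, and differences as log2 fold changes of the libraries labelled BMAL1 knockout over control from edgeR's quasi-likelihood test. A gene was called when its p-value, adjusted over all 14860 loci by Benjamini and Hochberg's method, was under 0.05. In a bulk sample, fewer cells that express a gene and less RNA of that gene per cell cannot be told apart.

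BMAL1 itself was measured at 11.3, 12.2 and 14.6 CPM in the control libraries and at 17.9, 19.75 and 19.4 CPM in those labelled as its knockout. Every one of the latter was higher than every control library. The log2 fold change was 0.58 (edgeR adjusted p = 0.0237), and of the 6 fits that left out a library it was called only in the fit without control replicate 3 and the fit without knockout replicate 1 (adjusted p 0.0153 to 0.129 over the 6). Counts per gene carry no information on an edit or on the protein. The higher RNA level therefore does not tell whether the gene was disrupted, and the genotype is written throughout as the label of the libraries. BMAL1 exons share 421 bp with an annotated long noncoding RNA on the opposite strand, and whether the counting used strand is not stated.

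Of the 9 thyroid follicular markers, PAX8 was the most abundant at 134 ± 15.4 CPM in control and 110 ± 19.1 CPM in the libraries labelled BMAL1 knockout (SD, n = 3 each), and FOXE1 lay at 48.0 ± 0.717 and 39.99 ± 3.29 CPM. The defining markers TG, TSHR and SLC5A5 each stayed under 0.5 CPM in all 6 libraries, and NKX2-1 was at 0 in all of them. The summed level of the list was 173, 173 and 201 CPM in control replicates 1 to 3 and 130, 149 and 173 CPM in the libraries labelled BMAL1 knockout. Neither of its 2 tested genes was called by edgeR, DESeq2 or limma-voom, although both had an unadjusted edgeR p under 0.05. The epithelial keratins KRT7, KRT8 and KRT18 were abundant while EPCAM and CDH1 were near 0. KRT8 led that list at a mean of 1282 CPM over the 6 libraries, and the list summed to 2990, 3044 and 2897 CPM in control and to 2539, 2482 and 2563 CPM in the libraries labelled BMAL1 knockout. KRT18 was the only gene of the list that edgeR called, at a log2 fold change of −0.50 (edgeR adjusted p = 0.00588, lower in all 3 libraries), and it lost the call without control replicate 2 (adjusted p 0.000252 to 0.0561 over the 6 fits that left out a library). DESeq2 and limma-voom also called KRT8 lower, as did edgeR without knockout replicate 1 and with the GC trend removed. The 3 other tested genes of the list, KRT7, KRT19 and EPCAM, had estimates above 0 and were not called, and the median of the list was 0.098.

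Markers of other cell types were nearly absent apart from COL1A1, at a mean of 860 CPM, with COL1A2 and COL3A1 under 0.1 CPM and DCN and LUM at 0. The 6 fibroblast markers summed to 903, 907 and 771 CPM in control and to 700, 913 and 966 CPM in the libraries labelled BMAL1 knockout. The 4 endothelial markers, led by VWF at 1.10 CPM, summed to 2.05, 1.83 and 2.21 CPM in control and to 1.33, 1.25 and 1.71 CPM in the other group. The 5 immune markers summed to 6.82, 6.84 and 7.32 CPM in control and to 3.00, 3.11 and 3.72 CPM in the libraries labelled BMAL1 knockout. Most of that sum was PTPRC, at 6.41, 6.25 and 6.54 CPM in control and 2.51, 1.97 and 2.60 CPM in the other group, which was called lower at a log2 fold change of −1.42 (edgeR adjusted p = 0.00107, called in all 6 fits that left out a library), whereas CD3E was at 0. CD14, the other gene of the list that was tested, went the other way, at 0.413 ± 0.202 and 0.835 ± 0.399 CPM (SD, n = 3 each), and was not called (log2 fold change 0.97, edgeR adjusted p = 0.343). Whether these markers had a part in the results for the lamina and HMG genes was not tested.

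The libraries also differed in how their counts followed the GC content of exons. In knockout replicate 1 the tenth of genes with the lowest GC content, at or under 38.6%, had a median log2 CPM 0.18 above their mean over the libraries, and the tenth with the highest, at or over 61.1%, lay at −0.15. Control replicate 3 leaned the same way with medians of 0.093 and −0.14. In the 4 other libraries the low-GC genes lay between −0.10 and −0.045 and the high-GC genes between 0.059 and 0.098. Exon GC content among the members ran from 39.4% in HMGA2 to 62.3% in LMNB2, so each member's estimate is also given without knockout replicate 1 and after removal of this trend.

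Among the 10 genes, HMGA1 and HMGA2 were lower in the libraries labelled BMAL1 knockout, to 0.668 and 0.732 times the control level, and both were called. No member was called higher by edgeR with all 6 libraries. The B-type lamins, LMNA, LBR and HMGB1 did not pass the test, and HMGB2 was higher in all 3 libraries labelled BMAL1 knockout without passing it. These 2 of 10 members called lower stood beside 1.36% of all genes tested, and the 0 called higher beside 1.01%, or 2.37% of all genes in either direction. The same count of 2 lower and 0 higher was found without knockout replicate 1, where 4.54% of all genes were called, and with the GC trend removed, where 6.98% were. In each of the 5 other fits that left out a library only HMGA1 was called lower. The fit without knockout replicate 3 also called HMGB2 higher (edgeR adjusted p = 0.0436). At an unadjusted p under 0.05 there were 3 members, HMGA1, HMGA2 and HMGB2, where 16.9% of all genes reached that limit. DESeq2 called HMGA1, HMGA2 and also HMGB2, with 4.69% of all genes called, and limma-voom called HMGA1 and HMGA2, with 2.10%. The groups did not overlap in those same 3 members, where 23.3% of all genes tested showed no overlap. Of these, 1 member was higher in the libraries labelled BMAL1 knockout beside 11.8% of all genes, and 2 were lower beside 11.5%. The estimates were above 0 for 5 members and below 0 for 5, and their median log2 fold change was 0.016 beside 0.0097 over all genes tested. Without knockout replicate 1 the median over the members was −0.057. By limits taken from the study's methods and applied here to edgeR, a fold change over 2 with a p under 0.01 read as unadjusted, 0 members were called beside 0.915% of all genes.

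**Figure D1:**
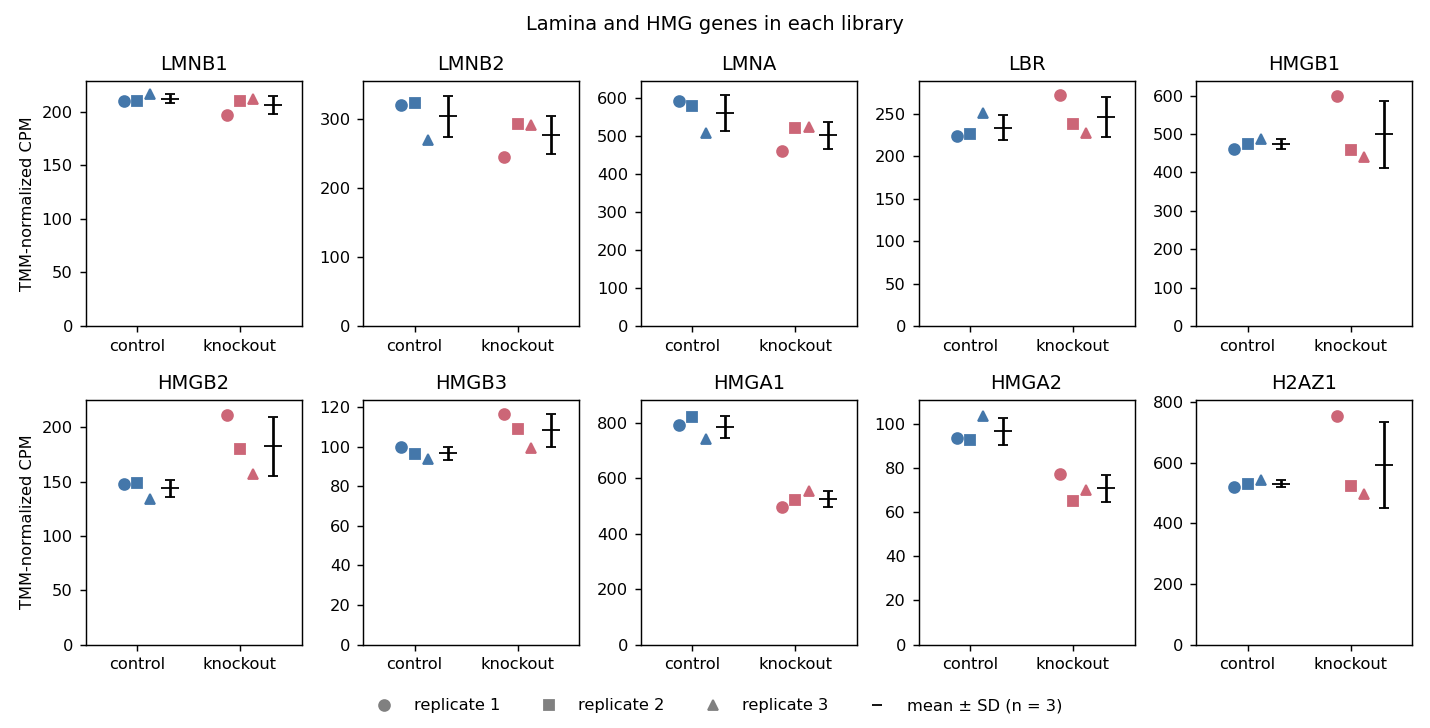
CPM (TMM-scaled counts, vertical axes from 0) of each of the 10 genes in the 3 libraries labelled control (blue) and the 3 labelled BMAL1 knockout (red), with the marker shape giving the replicate and the black bar the mean ± SD (n = 3). HMGA1, HMGA2 and HMGB2 show no overlap between the groups, and knockout replicate 1 stands alone at 754 CPM of H2AZ1 and 598 CPM of HMGB1.

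The lamins come first. LMNB1 (ENSG00000113368.12, chromosome 5 of hg38, 126776623 to 126837020, forward strand) encodes lamin B1, the B-type lamin most often used as a senescence marker. It was measured at 209.9, 209.8 and 217 CPM in control and at 197, 210.3 and 212 CPM in the libraries labelled BMAL1 knockout. The 6 values lay close together, the lowest being knockout replicate 1 and the highest control replicate 3, and the groups overlapped. The means were 212 ± 3.94 and 206 ± 8.38 CPM (SD, n = 3 each). The log2 fold change was −0.042, with a 95% confidence interval from −0.19 to 0.11 (edgeR adjusted p = 0.818), and no larger fall than 0.19 on the log2 scale lay inside the interval. The estimate was −0.019 after removal of the GC trend and −0.0097 without knockout replicate 1.

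LMNB2 (ENSG00000176619.13, chromosome 19, 2427638 to 2456959, reverse strand), which encodes the second B-type lamin, was at 320.1, 323 and 270.2 CPM in control and at 246, 294 and 292 CPM in the libraries labelled BMAL1 knockout. Control replicate 3 fell among the libraries of the other group, and knockout replicate 1 was the lowest of the 6. LMNA (ENSG00000160789.24, chromosome 1, 156082573 to 156140081, forward strand) encodes lamins A and C by alternative splicing, which counts per gene do not separate. It was at 593, 579.7 and 507 CPM in control and at 459, 521 and 523 CPM in the libraries labelled BMAL1 knockout. The same libraries were low as for LMNB2, and again the groups overlapped. The log2 fold changes were −0.13 for LMNB2 (95% interval −0.34 to 0.074) and −0.16 for LMNA (−0.35 to 0.028), with edgeR adjusted p-values of 0.513 and 0.376. These are the GC-rich lamins, at 62.3% and 58.8%, where LMNB1 has 50.3%. With the GC trend removed their estimates were −0.11 and −0.13. Without knockout replicate 1 they were −0.057 and −0.10, and the calls did not change.

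LBR (ENSG00000143815.15, chromosome 1, 225401502 to 225428925, reverse strand) has a nucleoplasmic domain that binds lamin B and HP1 and a membrane domain with sterol reductase activity. It was at 224, 226 and 251 CPM in control and at 272, 238 and 227 CPM in the libraries labelled BMAL1 knockout. Knockout replicate 1 was the highest, and the other 2 libraries of its group lay within the control range. The log2 fold change was 0.074 (95% interval −0.11 to 0.26, edgeR adjusted p = 0.721). It was 0.050 after removal of the GC trend and −0.0070 without knockout replicate 1.

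The HMGB genes differed among themselves. HMGB1 (ENSG00000189403.15, chromosome 13, 30456704 to 30617597, reverse strand) encodes a nuclear protein that acts as an alarmin once released from cells. Its values were 460.3, 475 and 486 CPM in control and 598, 459 and 440.2 CPM in the libraries labelled BMAL1 knockout. Knockout replicate 1 was above every other library, while the 2 remaining libraries of that group were below every control library. The log2 fold change was 0.076 (95% interval −0.16 to 0.31, edgeR adjusted p = 0.776). It was 0.026 after removal of the GC trend and −0.077 without knockout replicate 1.

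HMGB2 (ENSG00000164104.12, chromosome 4, 173331376 to 173334432, reverse strand), which is expressed mainly in proliferating cells and is lost early in senescence in fibroblasts, was at 148, 149 and 134 CPM in control. In the libraries labelled BMAL1 knockout it was at 211, 180.1 and 157 CPM. All 3 of these were above every control library, with knockout replicate 1 the highest and knockout replicate 3 closest to control. The means were 144 ± 8.18 and 183 ± 27.2 CPM (SD, n = 3 each). The log2 fold change was 0.35 (standard error 0.10, 95% interval 0.12 to 0.57), the unadjusted p was 0.00604 and the edgeR adjusted p was 0.109, which missed the threshold. DESeq2 gave an adjusted p of 0.0375 for the same gene, and edgeR without knockout replicate 3 gave 0.0436 (0.0375 to 0.260 over all alternatives). Its log2 fold change was 0.30 after removal of the GC trend and 0.23 without knockout replicate 1. HMGB3 (ENSG00000029993.15, chromosome X, 150980509 to 150990771, forward strand), the third paralog, was at 99.9, 96.1 and 93.7 CPM in control and at 116, 109 and 99.5 CPM in the libraries labelled BMAL1 knockout. Here only knockout replicate 3 reached into the control range, and the log2 fold change of 0.17 (95% interval −0.0099 to 0.34) was not called (edgeR adjusted p = 0.323). It was 0.17 after removal of the GC trend as well, and 0.11 without knockout replicate 1.

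Set per kilobase of exon, the ratio of HMGB2 to HMGB1 within a library was 1.03, 1.00 and 0.886 in control replicates 1 to 3, against 1.13, 1.26 and 1.14 in knockout replicates 1 to 3. It was higher in every library of the latter group, and the smallest p that an exact permutation test of 3 against 3 libraries can give is 0.1. HMGB2 by itself also showed no overlap between the groups, as did 23.3% of all genes tested, so the ratio is not a separate result. The ratios of LMNB1 to LMNA, LMNB1 to LMNB2 and HMGA2 to HMGA1 overlapped between the groups.

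The 2 called genes encode the HMGA proteins, small architectural factors that are abundant in embryonic and transformed cells. HMGA1 (ENSG00000137309.21, chromosome 6, 34236873 to 34246231, forward strand) was at 794, 821 and 743 CPM in control and at 497, 522 and 555 CPM in the libraries labelled BMAL1 knockout. The groups were far apart, since the lowest control library stood 188 CPM above the highest library labelled as knockout, while the libraries within a group spanned at most 78.1 CPM. The means were 786 ± 39.7 and 525 ± 29.0 CPM (SD, n = 3 each), and the log2 fold change was −0.58 (standard error 0.076, 95% interval −0.75 to −0.42, edgeR adjusted p = 0.00303). At an adjusted p under 0.05 HMGA1 was called in all 6 fits that left out a library and in each of the 11 other fits, while its fold change stayed short of the study's limit of 2. Without knockout replicate 1 its estimate was −0.55.

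HMGA2 (ENSG00000149948.14, chromosome 12, 65824460 to 65966291, forward strand) was at 93.3, 92.7 and 104 CPM in control and at 77.1, 64.9 and 70.1 CPM in the libraries labelled BMAL1 knockout. All 3 of the latter were lower than every control library, with control replicate 3 the highest and knockout replicate 2 the lowest. The means were 96.6 ± 6.21 and 70.7 ± 6.11 CPM (SD, n = 3 each), and the log2 fold change was −0.45 (standard error 0.087, 95% interval −0.64 to −0.26, edgeR adjusted p = 0.0214). With 5 libraries the call was kept only without knockout replicate 1, at a log2 fold change of −0.52, and the adjusted p lay between 0.00429 and 0.104 over the 6 fits that left out a library. HMGA1 is GC-rich (61.5%) and HMGA2 is AT-rich (39.4%), and their estimates after removal of the GC trend were −0.56 and −0.50. HMGA2 exons share 384 bp with the antisense gene HMGA2-AS1, which is absent from the count table, and without strand the reads of the pair cannot be told apart.

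H2AZ1 (ENSG00000164032.12, chromosome 4, 99948086 to 99950355, reverse strand) was at 518.5, 529.7 and 543.5 CPM in control and at 754, 523 and 497 CPM in the libraries labelled BMAL1 knockout. A single library, knockout replicate 1, lay far above the rest, and the 5 others fell within 46.6 CPM of each other. The log2 fold change was 0.16 with a wide interval (−0.13 to 0.45, edgeR adjusted p = 0.597), and it was −0.058 without knockout replicate 1. H2AZ1 has an intermediate exon GC content of 49.2%, and with the GC trend removed its estimate was 0.18. Its exons share 223 bp with the noncoding gene H2AZ1-DT on the opposite strand.

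**Figure D2:**
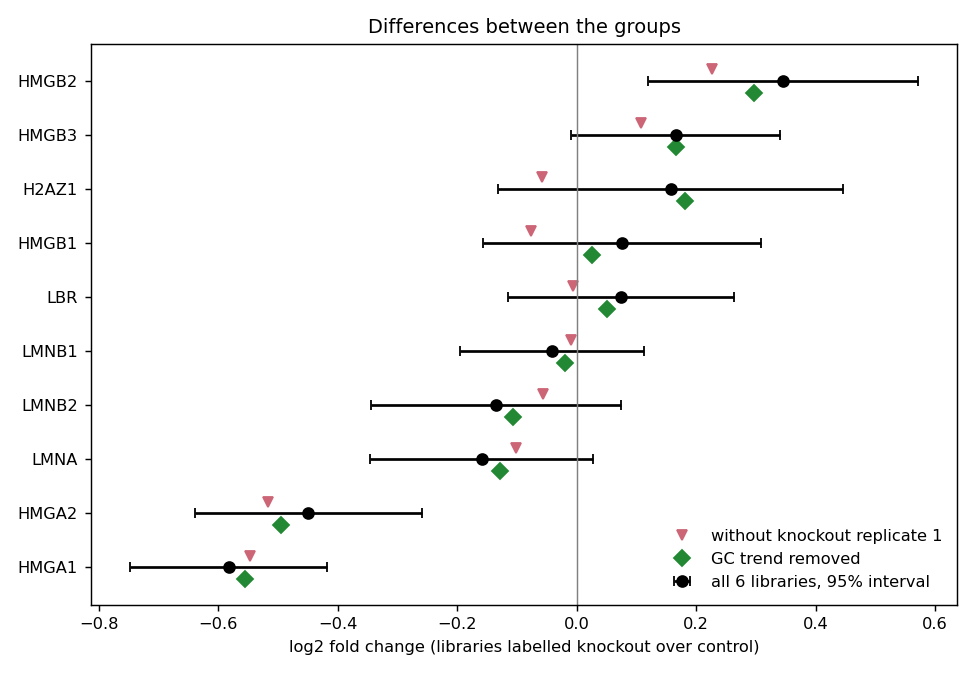
Log2 fold change of the libraries labelled BMAL1 knockout over control (horizontal axis) for the 10 genes, ordered by size, from all 6 libraries with 95% confidence interval (black), without knockout replicate 1 (red triangles) and with the GC trend removed (green diamonds). The intervals of HMGA1, HMGA2 and HMGB2 lie on one side of 0, and the estimates of H2AZ1, HMGB1 and LBR change sign without knockout replicate 1.

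Measured against the mean of log2 CPM in control, knockout replicate 1 was the extreme library of its group for 9 of the 10 genes. It was highest for LBR, HMGB1, HMGB2, HMGB3 and H2AZ1, at 0.22, 0.34, 0.56, 0.27 and 0.51, and lowest for LMNB1, LMNB2, LMNA and HMGA1, at −0.11, −0.30, −0.28 and −0.66. For HMGA2 it was the library of its group nearest to control, at −0.32 beside −0.57 and −0.46. In knockout replicates 2 and 3, H2AZ1 and HMGB1 lay from −0.11 to −0.019 from the control mean, and LBR at 0.030 and −0.037. The fall of HMGA1 in those libraries, −0.59 and −0.50, did not rest on knockout replicate 1.

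**Figure D3:**
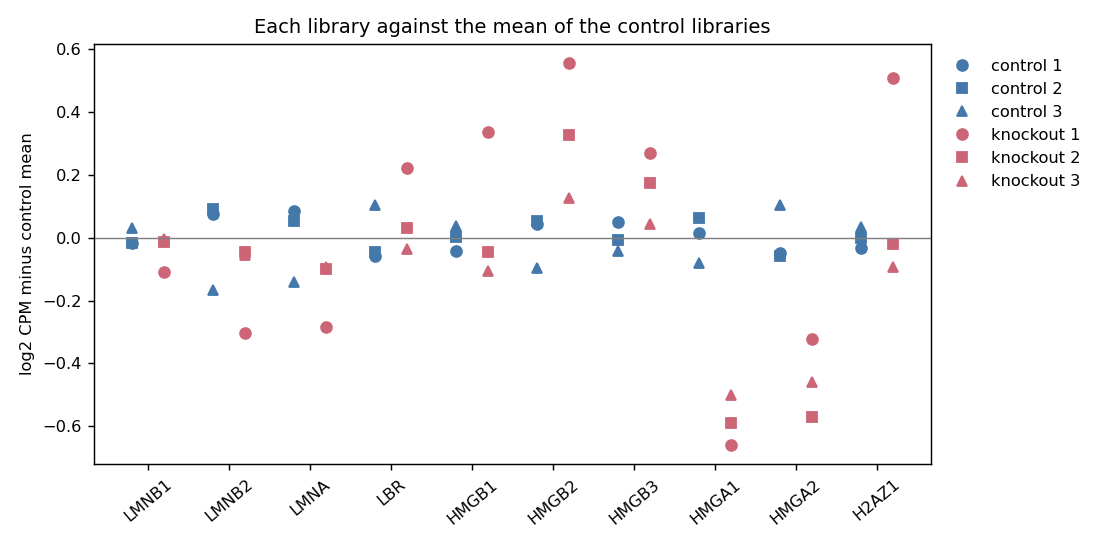
Log2 CPM of each gene in each library minus the mean of log2 CPM in the 3 control libraries (vertical axis), with control in blue, the libraries labelled BMAL1 knockout in red and the marker shape giving the replicate. Knockout replicate 1 (red circles) is the outermost library of its group for 9 of the 10 genes, and all 3 red points of HMGA1 lie between −0.66 and −0.50.

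Similarity over the 6 libraries was described by the root-mean-square difference of mean-centred log2 CPM, with no test. Among the members the closest pair was LMNB2 and LMNA, at 0.0318, followed by HMGB1 and H2AZ1, at 0.0614, and LBR and HMGB1, at 0.0715. HMGA1 and HMGA2 were less alike, at 0.154, and the most distant pair was HMGB2 and HMGA1, at 0.490. Over the 9891 genes that averaged 10 CPM or more, the 3 closest to HMGA1 were NIBAN2 (0.0234), TNFAIP3 (0.0440) and FHOD3 (0.0493). The 3 closest to HMGA2 were CD44 (0.0309), AMIGO2 (0.0383) and MSTRG.22226 (0.0416), a locus assembled from reads.

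Levels were compared between genes as CPM per kilobase of exon. In control, HMGA1 was highest at 338 ± 17.0, followed by H2AZ1 at 234 ± 5.50 (SD, n = 3 each), and the control ranges of these 2 genes did not overlap. A middle group held LMNA at 68.8 ± 5.71, HMGB1 at 61.5 ± 1.67, HMGB2 at 59.9 ± 3.41, LMNB1 at 58.4 ± 1.09 and LMNB2 at 56.4 ± 5.51, in which each gene overlapped with the next. LBR at 40.9 ± 2.59, HMGB3 at 24.7 ± 0.808 and HMGA2 at 6.41 ± 0.412 were each separate from the gene above them. The length was that of all annotated exons joined, 15070 bp for HMGA2, so the level of a gene whose cells use shorter transcripts is understated. In the libraries labelled BMAL1 knockout, H2AZ1 had the highest mean at 261 ± 62.3, but 2 of its 3 libraries, at 231 and 219, lay within the range of HMGA1, which was 214 to 239.

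**Figure D4:**
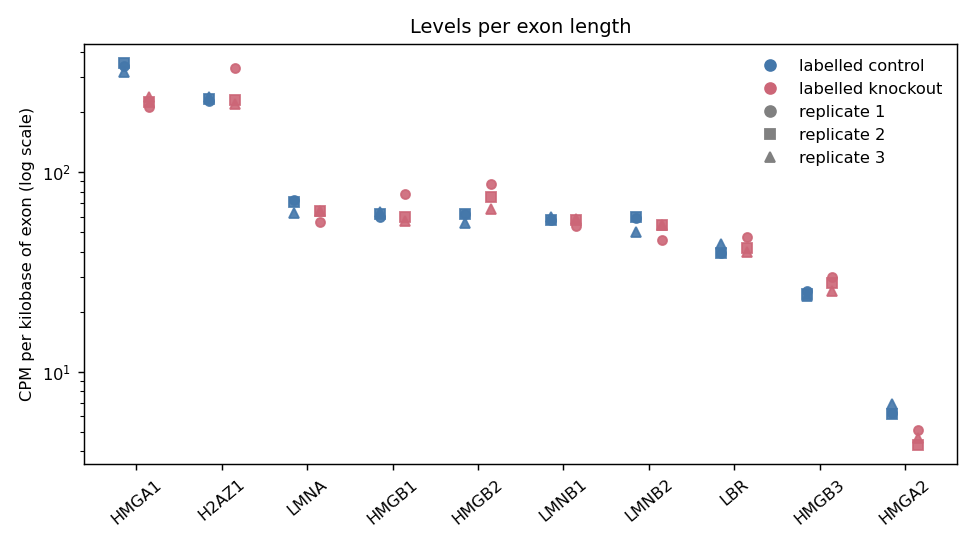
CPM per kilobase of exon (vertical log axis) of the 10 genes in the 3 libraries labelled control (blue) and the 3 labelled BMAL1 knockout (red), with the marker shape giving the replicate and the genes in the order of their control mean. HMGA1 and H2AZ1 lie above the 5 genes from LMNA to LMNB2, whose values overlap, and HMGA2 is lowest at 6.41 in control and 4.69 in the other group.

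Promoters were read for the members from RefSeq (GRCh38.p14), as 300 bases from 250 before to 50 after an annotated start, and 8 of the 10 members matched with 15 entries. HMGA2 and HMGB2 had none. The E-box CACGTG, the same on both strands and the sequence bound by the CLOCK and BMAL1 pair, was in 1 of the 15 entries, beside 7.26% of 35116 promoters of that length. The CHR element TTTGAA, known from cell cycle genes, was on either strand in 4 entries, of H2AZ1, HMGB1, HMGB3 and LMNB2, beside 15.2% of all promoters. CCAAT, or ATTGG on the other strand, was in 8 entries, beside 34.6%. The E2F octamers TTTGGCGC and TTTCGCGC, searched on both strands, were in 0 of the 15, beside 0.652% and 0.515%. A match describes these letters only.

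The entry with the E-box belongs to LMNB1, at chr5:126776886-126777185 on the forward strand, and is shown because BMAL1 binds that sequence. The entry of HMGA1 at chr6:34236623-34236922, forward strand, is shown for the called member, and those of H2AZ1 at chr4:99950226-99950525 and HMGB1 at chr13:30465191-30465490, both reverse strand, for the pair that was high together in knockout replicate 1. Capitals mark CACGTG in LMNB1, TTTGAA in H2AZ1 and HMGB1, and CCAAT or ATTGG wherever they occur.
LMNB1: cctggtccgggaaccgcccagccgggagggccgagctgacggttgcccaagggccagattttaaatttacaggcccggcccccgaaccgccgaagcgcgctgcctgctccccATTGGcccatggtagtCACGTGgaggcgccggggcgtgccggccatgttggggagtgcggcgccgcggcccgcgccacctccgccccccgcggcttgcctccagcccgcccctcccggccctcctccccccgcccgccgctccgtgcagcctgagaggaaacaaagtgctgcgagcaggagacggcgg
HMGA1: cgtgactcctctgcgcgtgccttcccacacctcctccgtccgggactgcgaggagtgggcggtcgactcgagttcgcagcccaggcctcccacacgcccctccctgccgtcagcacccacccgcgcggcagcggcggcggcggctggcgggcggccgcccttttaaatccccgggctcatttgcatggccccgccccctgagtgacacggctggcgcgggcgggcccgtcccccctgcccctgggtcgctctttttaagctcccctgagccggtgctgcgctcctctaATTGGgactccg
H2AZ1: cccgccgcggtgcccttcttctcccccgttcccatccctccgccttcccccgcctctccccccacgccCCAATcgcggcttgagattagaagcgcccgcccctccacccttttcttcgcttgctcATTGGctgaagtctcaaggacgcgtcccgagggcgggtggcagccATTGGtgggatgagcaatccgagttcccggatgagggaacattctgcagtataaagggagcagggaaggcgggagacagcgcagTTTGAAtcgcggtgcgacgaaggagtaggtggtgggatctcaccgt
HMGB1: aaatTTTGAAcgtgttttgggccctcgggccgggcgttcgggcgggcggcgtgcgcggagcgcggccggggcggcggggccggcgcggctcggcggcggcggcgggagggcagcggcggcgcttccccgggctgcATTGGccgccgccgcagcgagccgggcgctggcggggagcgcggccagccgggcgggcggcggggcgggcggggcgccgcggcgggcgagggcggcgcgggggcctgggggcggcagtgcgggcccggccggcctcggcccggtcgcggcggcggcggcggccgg

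The LMNB1 entry holds the E-box and 1 ATTGG. The HMGA1 entry holds 1 ATTGG and neither of the other 2 motifs, and the H2AZ1 entry holds 1 TTTGAA and 3 copies of CCAAT or its reverse.

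Other genes that work with these proteins were described in lists, by counts and medians. Over all genes tested, edgeR called 1.01% higher and 1.36% lower, 16.9% had an unadjusted p under 0.05, DESeq2 called 4.69% and the median log2 fold change was 0.0097. Of 24 lamin-binding and nuclear envelope genes, edgeR called 0, with 2 at an unadjusted p under 0.05, and DESeq2 called 1, ANKLE2, lower. With the GC trend removed edgeR called 2 lower, SYNE3 and ANKLE2, and without knockout replicate 1 it called ANKLE2. The list had 17 estimates below 0, or 70.8% where all genes had 47.7%, and a median log2 fold change of −0.042. Its most abundant gene was TPR, a nuclear basket protein, at 381 CPM. ANKLE2, which takes part in reassembly of the nuclear envelope after mitosis, was at 149 ± 2.59 CPM in control and 122 ± 6.40 CPM in the libraries labelled BMAL1 knockout (SD, n = 3 each). Its log2 fold change was −0.30 and its edgeR adjusted p was 0.0588.

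Of 13 other HMG-box and HMGN genes, 12 were tested and edgeR called 0, as did DESeq2 and limma-voom, with 2 at an unadjusted p under 0.05. With the GC trend removed edgeR called 1, TFAM, higher. HMGB4 was at 0 in every library. The median was 0.00013, and −0.0044 without knockout replicate 1. HMGN2, a nucleosome-binding protein, was the most abundant at 880.0 CPM with a log2 fold change of 0.17 (edgeR adjusted p = 0.327). Of 13 genes for deposition and removal of H2A.Z, edgeR called 1, lower, beside 1.36% of all genes. This was EP400, an ATPase of the TIP60 complex that exchanges H2A.Z, at 135, 140.1 and 129 CPM in control and at 88.6, 106 and 108 CPM in the libraries labelled BMAL1 knockout. It was lower in all 3, with a log2 fold change of −0.41 (edgeR adjusted p = 0.0351), and kept the call in 2 of 6 fits that left out a library, those without knockout replicate 1 and without knockout replicate 3 (adjusted p 0.0162 to 0.167). It also lost the call with the replicate number as a block (edgeR adjusted p = 0.0654) and with scaling by library size only (0.0575). EP400 is on chromosome 12 at 131949942 to 132080460, near ANKLE2 of the nuclear envelope list at 132725503 to 132761832. MDM2, on the same chromosome at 68808177 to 68845544, was called higher. Whether position had a part in the lower values of EP400 and ANKLE2 was not tested. Without knockout replicate 1 a second gene of the list, RUVBL1, was called lower. H2AZ2, which encodes the second form of H2A.Z, was the most abundant of the list at 214 CPM. It was higher in all 3 libraries labelled BMAL1 knockout, at 224, 234 and 226 CPM against 197, 194 and 207 CPM, and was not called (log2 fold change 0.19, edgeR adjusted p = 0.184). The list had a median of 0.023 beside 0.0097 over all genes, and a median of −0.065 without knockout replicate 1.

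Among 20 genes of heterochromatin formation, which include HP1 proteins, the HIRA and ASF1 chaperones and macroH2A, edgeR called 0, with 3 at an unadjusted p under 0.05, and DESeq2 called 1, MACROH2A2, higher. The edgeR fit called MACROH2A2 without knockout replicate 1 and with either of 2 other filters on counts, and called it and TRIM28, the latter lower, with the GC trend removed. The median was −0.0056, and 0.016 without knockout replicate 1. MACROH2A2 was at 22.1 ± 3.29 CPM in control and 30.5 ± 1.38 CPM in the libraries labelled BMAL1 knockout (SD, n = 3 each), with an edgeR adjusted p of 0.0538. The most abundant gene was H3-3B, a histone H3.3 gene, at 605.5 CPM.

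Proliferation genes were counted because HMGB2, LMNB1 and H2AZ1 follow the cell cycle in many cells. Of 20, edgeR called 0, with 3 at an unadjusted p under 0.05, and DESeq2 called 1, CDK1, higher. With the GC trend removed edgeR called CDK1, and without knockout replicate 1 it called E2F2 higher and CCNB1 lower. The median was −0.0098, and −0.029 without knockout replicate 1. MKI67, the most abundant, was at 1014 ± 8.71 and 1031 ± 83.3 CPM (SD, n = 3 each). CDK1 was at 217, 229.9 and 253 CPM in control and at 402, 279 and 270.4 CPM in the libraries labelled BMAL1 knockout, so knockout replicate 1 was again the highest library (log2 fold change 0.44, edgeR adjusted p = 0.118). CDK1, TFAM and MACROH2A2 are all on chromosome 10, from 60778331, 58385345 and 70052544. SUV39H2 and MKI67, farther off on that chromosome from 14878820 and 128096659, had log2 fold changes of 0.034 and 0.025 and were not called. Whether position had a part in these results was not tested.

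Of 10 cyclin-dependent kinase inhibitor and related genes, edgeR called 2 higher, beside 1.01% of all genes tested, and the median of the list was 0.19. The count was 3 without knockout replicate 1 and with the GC trend removed, 0 without control replicate 2 and 1 in each of the 4 remaining fits that left out a library. MDM2, which encodes a ubiquitin ligase, was the most abundant, with a log2 fold change of 0.48 (edgeR adjusted p = 0.00738). It lost the call only without control replicate 2 among the 6 fits that left out a library (adjusted p 0.00351 to 0.0705). CDKN2B, at a log2 fold change of 0.66 (edgeR adjusted p = 0.0160), kept it only without knockout replicate 1 (0.00610 to 0.0768). CDKN1A, the p21 gene, was at 104 ± 13.0 and 141 ± 15.4 CPM (SD, n = 3 each), and its edgeR adjusted p of 0.0520 fell under 0.05 in 7 of 10 other settings, DESeq2 among them, but in only 1 of the 6 fits that left out a library, the fit without knockout replicate 1 (adjusted p 0.0156 to 0.186). GLB1 was at a log2 fold change of −0.055 and was not called.

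Of 7 genes that regulate HMGA2 or share its let-7 control, 5 were tested and edgeR, DESeq2 and limma-voom called 0, with 0 at an unadjusted p under 0.05. LIN28A and LIN28B, which block let-7 maturation, stayed under 0.3 CPM. DICER1, which processes microRNA precursors, was the most abundant at 128 CPM with a log2 fold change of −0.081. The median of this list was −0.097, and −0.060 without knockout replicate 1. Of 5 receptors for extracellular HMGB1, 3 were tested, and TLR4, at 5.47 ± 0.782 and 2.95 ± 0.290 CPM (SD, n = 3 each), was called lower at a log2 fold change of −0.88 (edgeR adjusted p = 0.0163), a call lost without control replicate 3 and without knockout replicate 2 (adjusted p 0.0188 to 0.0821 over the 6 fits). This was 1 of 3 genes beside 1.36% of all genes, and the median of the 3 was −0.45 beside 0.0097.

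Of 7 genes of sterol synthesis listed beside LBR, edgeR called 0, with 3 at an unadjusted p under 0.05 beside 16.9% of all genes, while DESeq2 called 3 beside 4.69%, TM7SF2, CYP51A1 and MSMO1, all higher. The edgeR fit called TM7SF2 and MSMO1 without knockout replicate 1 and with the GC trend removed, and MSMO1 also without control replicate 3, with scaling by library size only and with a stricter filter on counts. TM7SF2 encodes the other sterol reductase that carries out the reaction of LBR, and it was at 27.4, 24.0 and 20.3 CPM in control and at 30.8, 33.0 and 32.5 CPM in the libraries labelled BMAL1 knockout. The groups did not overlap for it, and the log2 fold change was 0.43 (edgeR adjusted p = 0.0678). The list had a median of 0.23 beside 0.0097 over all genes, and a median of 0.15 without knockout replicate 1.

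**Figure D5:**
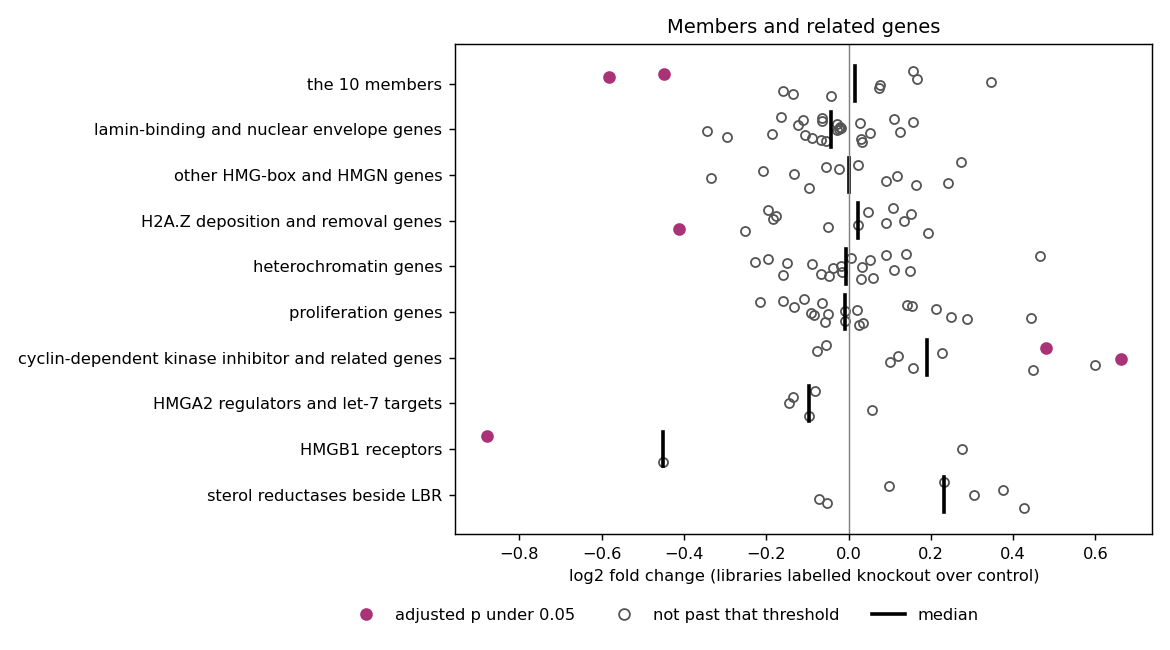
Log2 fold change of the libraries labelled BMAL1 knockout over control (horizontal axis) for the 10 genes and for 9 lists of related genes, with a point per tested gene, filled where the adjusted p from edgeR was under 0.05, and a black bar at the median of each list. Filled points are HMGA1 and HMGA2, then EP400, MDM2, CDKN2B and TLR4, and 6 of the lists have none.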

How the data were processed

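HTori-3.1 RNA was sequenced as 150-bp pairs. Per the study's methods, the authors filtered reads for adapters and base quality, aligned those kept to hg38 and deposited counts of uniquely mapped reads per gene, neither normalized nor pooled. The submitters' notes name fastp 0.20.1 and HISAT2 2.0.4; the annotation and strandedness are not given in the sources used here. Columns were matched to samples by name.

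TMM-scaled CPM were computed from the counts with edgeR 4.0.16 (R 4.3.3), as were the 2-sided quasi-likelihood tests (filterByExpr, robust estimation). Exon lengths, GC content and overlaps came from GENCODE 44; exon GC content was known for 91.2% of genes tested. Alternatives were other scalings and filters, a replicate block, DESeq2 1.42.0, limma-voom (limma 3.58.1), thinning to the smallest total, removal of each library's GC trend, adding pseudogene counts, the study's thresholds (the p read as unadjusted, from edgeR) and leaving out each library. The current and the earlier form of edgeR's quasi-likelihood fit were both run, and the results of both were seen before the current form was chosen, to follow an earlier description of how these data were processed; the earlier form is an alternative, also chosen after seeing the data. In simulated data with changes of 1 on the log2 scale, larger than any member's, edgeR recovered 82% with 8.38% of its calls false, and DESeq2 82% with 15.9%. With a GC trend simulated, edgeR recovered 69% with 0% false, and 83% with 5.14% false after its removal. That simulated trend was not fitted to these libraries, and in knockout replicate 1 it rose with GC content where the data fell. These rates therefore do not measure how well the trend in these data was removed.

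The members and the 14 lists were chosen with earlier results of these data known. Named from each list were its called genes, up to 8, and its most abundant gene, with the 3 genes most like each called member; some genes of the lists are not reported here. ANKLE2, MACROH2A2, CDK1, CDKN1A, TM7SF2, CYP51A1, MSMO1, GLB1, SYNE3, TFAM, RUVBL1, TRIM28, SUV39H2, E2F2, CCNB1, HMGB4, LIN28A, LIN28B and the other markers beyond this rule were named after their values were seen.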

Additional observations from a re-analysis of the deposited data

How the results depend on the processing

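HMGA1 kept its direction and its call at an adjusted p under 0.05 in all 17 alternative fits (log2 fold change −0.63 to −0.55), though not by the study's limits below. HMGA2 kept its direction, from −0.52 to −0.39, and its call at that threshold in all 11 fits that used every library, but lost it in 5 of the 6 fits that left out a library, all but the fit without knockout replicate 1. BMAL1 ranged from 0.50 to 0.70 and lost its call in 4 of those fits, without control replicates 1 and 2 and without knockout replicates 2 and 3. HMGB2 was called by DESeq2 (0.34) and without knockout replicate 3 (0.23 to 0.44 over the 6 fits). LMNB1, LMNB2, LMNA and HMGB3 kept their sign and remained uncalled throughout. H2AZ1 (−0.058 to 0.27), HMGB1 (−0.077 to 0.16) and LBR (−0.0070 to 0.13) turned below 0 without knockout replicate 1, and in no other fit. The median over the members was −0.057 without that library and up to 0.038 over the 6 fits.

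DESeq2 called 310 genes higher and 387 lower, and 1 member higher. Removal of the GC trend gave 492 and 545. The study's limits applied to edgeR, a fold change over 2 with a p under 0.01 read as unadjusted, gave 84 and 52 with 0 members lower. The earlier form of edgeR's fit, like the current one chosen after seeing the data, gave 161 and 212, changed no member's call and called CDKN1A (adjusted p = 0.0483). Leaving out a library gave 39 to 323 genes higher and 65 to 360 lower, with 0 to 1 members higher and 1 to 2 lower. The highest counts came without knockout replicate 1, and counts fell by more than 1.5 times without any of control replicates 1, 2 and 3 or knockout replicate 2 (67 and 75, 39 and 65, 52 and 78, 57 and 86). The causes were not tested.

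With the replicate number as a block, 97 genes were higher and 119 lower, and no member's call changed. The deviations of same-numbered libraries from their group means correlated weakly (r = −0.135, 0.0284 and −0.0370), and not every library correlated best with its own number. With so few libraries in a group, these values cannot tell whether same-numbered libraries shared a culture or a batch.

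The lowest count of any member was 1981 reads. There were 3 libraries a group, and knockout replicate 1 was the library of its group farthest from the control mean in 9 of 10 members. A p that missed the threshold does not show that LMNB1, LMNB2, LMNA, LBR or HMGB1 did not differ. Protein amount and location, splicing and cells without etoposide were not analysed here.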
